A study of Bos taurus with 16 samples.

Results

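The antimicrobial peptides and proteins described here were 10 genes of cow blood: the cathelicidins CATHL1 to CATHL6, BPI, LTF, PGLYRP1 and DEFB122. Every probe that carried one of these symbols in the table of averages was taken, which gave 24 of 43653 probes and 10 of 16966 gene symbols. Gene expression had been measured in whole blood on 16 one-colour (Cy3) oligonucleotide arrays, with 4 arrays in each of 4 groups. The animals were lactating Holstein Friesian cows, 5 in each arm. The LPS group was blood of probiotic-fed cows at day 60 to which lipopolysaccharide, a bacterial cell wall component, was added ex vivo at 100 ng/ml. The probiotic group was blood of cows fed a pack of yeast, fungal and bacterial products for 60 days, the untreated group was blood of cows that had only water for 60 days, and the day 0 group was blood drawn before the supplement, labelled as coming from the probiotic arm. All blood was held for 30 min at 37 °C in 5% CO2 before RNA was extracted with lysis of red and white cells. The RNA that was labelled was a pool, so a group's 4 arrays repeat the measurement of pooled RNA, and p-values measure only the spread between these arrays and not between cows.

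These genes encode proteins that kill or starve microbes. Neutrophils store cathelicidins as inactive precursors in their granules, and the short peptides cut from them damage microbial membranes. BPI binds lipopolysaccharide and permeabilises Gram-negative bacteria, LTF (lactoferrin) withholds iron, and PGLYRP1 binds the peptidoglycan of bacterial walls, and all of them are granule proteins too. Most granule proteins are made while neutrophils mature in the marrow, and their transcripts are known to be low in mature circulating cells. DEFB122 belongs to the beta-defensins, small cysteine-bridged peptides, many of which are made by epithelia. In the ARS-UCD2.0 assembly of RefSeq the cathelicidin genes lie together in the order CATHL4, CATHL1, CATHL3, CATHL2, CATHL6 and CATHL5, with a pseudogene and 1 unnamed locus among them, and DEFB122 lies between DEFB122A and DEFB123.

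Each probe is 60 bases long, and the probes below are those on which the results turn, set beside a second probe of the same gene that behaved differently, with sequences as deposited and read 5′ to 3′. The first BPI, LTF and CATHL6 probe gave the values that could be tested, and the second of each did not.
BPI A_73_113676: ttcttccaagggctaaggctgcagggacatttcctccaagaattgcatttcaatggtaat
BPI A_73_P298991: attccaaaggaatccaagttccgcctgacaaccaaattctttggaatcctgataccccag
LTF A_73_116655: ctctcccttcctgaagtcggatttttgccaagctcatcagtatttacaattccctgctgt
LTF A_73_P379426: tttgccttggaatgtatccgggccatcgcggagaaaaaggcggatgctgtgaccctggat
CATHL6 A_73_116963: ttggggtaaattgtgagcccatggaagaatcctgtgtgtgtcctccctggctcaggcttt
CATHL6 A_73_P112816: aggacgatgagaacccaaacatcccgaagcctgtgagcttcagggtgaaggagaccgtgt
CATHL2 A_73_120001: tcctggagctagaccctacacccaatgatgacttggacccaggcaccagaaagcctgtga
The CATHL2 probe is shown because it stayed dim where most spots around it were bright.

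A pair of DEFB122 probes overlapped over 52 bases and differed there at 1 position, C24T, counted from the 5′ end of A_73_P074281, whose base is given first and that of A_73_P032826 second. The stretch of 30 bases around that position is shown for both, with the differing base in capitals.
DEFB122 A_73_P074281: ataacgttgcccCgagcctgtcctcagctg
DEFB122 A_73_P032826: ataacgttgcccTgagcctgtcctcagctg
The CATHL2 probe A_73_P063676 shared its last 24 bases with a probe that has no symbol, and that unnamed probe matched 34 bases of the CATHL4 probe A_73_P116311 on the opposite strand, with 3 mismatches. By accession, 22 of the 24 probes matched a RefSeq transcript of the same gene, and the other 2, a CATHL1 and a CATHL4 probe, carry the accessions of expressed sequence tags.

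The arrays differed in brightness and in where on their surface they were bright. A spot was called well above background by the scanner software, and such spots made up 34.4 ± 8.53% of spots on the LPS arrays, 32.9 ± 4.70% on the probiotic arrays, 15.2 ± 3.06% on the untreated arrays and 17.9 ± 6.59% on the day 0 arrays (SD, n = 4 each). Detection was higher near the edges: in the first and last 53 rows 57.1% to 62.4% of spots were well above background on the probiotic arrays, against 10.7% to 21.1% in the inner block. A probe for spiked-in control RNA (E1A_r60_1, 32 spots per array) had a median net signal of 4770 to 119174 scanner units on the LPS arrays, 89.6 to 59872 on the probiotic arrays, 8.51 to 19.1 on the untreated arrays and 249 to 17966 on the day 0 arrays. The value of 89.6 on the probiotic arrays was that of replicate 4. Across 11897 probes, the log2 levels used below correlated (Pearson's r) at 0.0265 to 0.491 between the 4 untreated arrays and the 12 other arrays, at 0.521 to 0.817 among the untreated arrays and at 0.494 to 0.991 among the 12 others. The untreated arrays thus stood apart from all others, and the part of this in the comparisons that use them was not tested. On the untreated arrays 14 of 20 neutrophil probes and 17 of 25 T cell probes were never well above background, against 7 and 10 on the probiotic arrays. Of all probes, 70.5% were never well above background on the untreated arrays and 59.3% on the probiotic arrays. The marker counts on the untreated arrays were thus near the share of all probes. No slide held arrays of more than 1 group, so the effects of slide and group cannot be told apart. Only the LPS and probiotic arrays shared a scan day, so elsewhere the day of scanning cannot be told apart from the group. The small number of arrays limits the precision of every value.

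Most of the antimicrobial probes gave little signal. Of the 24 probes, 16 (66.7%) were not well above background on any of the 16 arrays, against 37.6% of all probes. The 8 others were 1 probe each of BPI, CATHL5, CATHL6 and PGLYRP1 and 2 each of LTF and DEFB122. CATHL1, CATHL2, CATHL3 and CATHL4 had no probe well above background on any array. By group, with 1 uneven spot left out, 18.8% of the 96 values of these probes were well above background in the LPS group, 11.5% in the probiotic group, 12.5% in the untreated group and 10.4% in the day 0 group. For all probes those shares were 34.1% in the LPS group, 32.7% in the probiotic group, 15% in the untreated group and 17.8% in the day 0 group. The map of net signals shows the filled points gathered in a few rows.

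**Figure D1:**
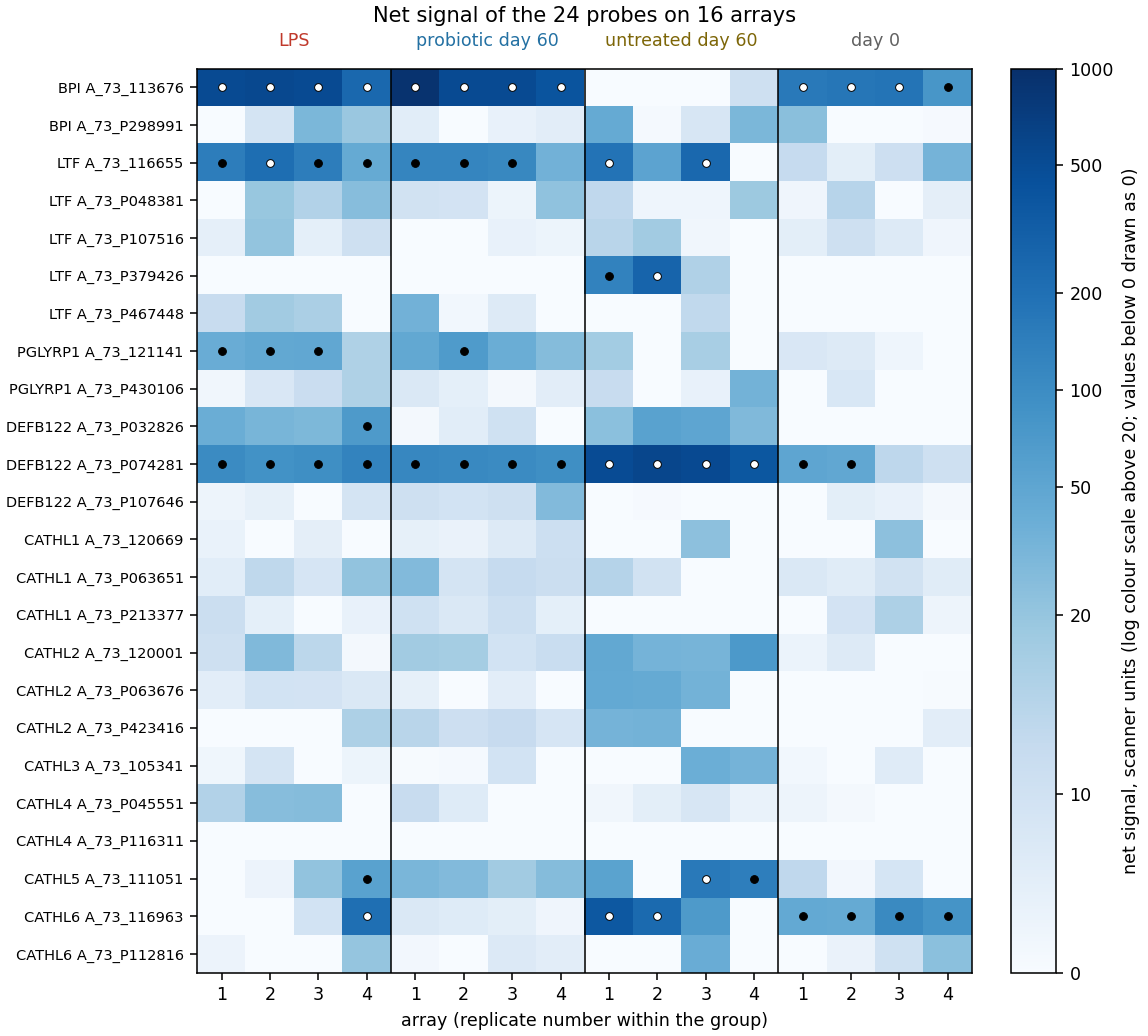
Net signal in scanner units (colour, on a log scale above 20) of the 24 probes (rows) on the 16 arrays (columns, by group and replicate number); points mark spots well above background. Points fill whole groups for BPI A_73_113676, LTF A_73_116655, CATHL6 A_73_116963 and DEFB122 A_73_P074281, and 16 rows have none.

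The arrays were not lit evenly, so each probe was set beside the spots around it. The share of spots well above background within 15 rows and 8 columns of a probe was used to describe its surroundings. For 5 probes this share was under 10% on every probiotic array: the 3 CATHL1 probes, the CATHL3 probe and CATHL6 A_73_116963. None of their 20 values on the probiotic arrays was well above background. For 7 probes the share was over 40% on every probiotic array: BPI A_73_113676, DEFB122 A_73_P074281, LTF A_73_P379426, CATHL2 A_73_120001 and A_73_P063676, and both CATHL4 probes. These 40% and 10% limits were chosen after the values were seen. The remaining 12 probes lay between.

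CATHL2 and CATHL4 encode precursors of membrane-active peptides, indolicidin in the case of CATHL4. CATHL2 A_73_120001 measured 1.08 to 27.8 units on the LPS arrays and 9.48 to 18.4 units on the probiotic arrays, where 63.6% to 68.5% of the spots around it were well above background. On the untreated arrays it measured 32.4 to 70.7 units, and on the day 0 arrays -6.49 to 6.49 units. CATHL4 A_73_P045551 measured -8.64 to 26.0 units on the LPS arrays and -2.32 to 11.9 units on the probiotic arrays, with 57.7% to 63.0% of its surroundings detected on the probiotic arrays. The lowest signal called well above background was 30.7 to 40.4 units on the LPS arrays, 40 to 50.6 on the probiotic arrays, 78.3 to 129 on the untreated arrays and 31.5 to 38.4 on the day 0 arrays. These CATHL2 and CATHL4 signals were under the detection limit in every group, on the probiotic arrays in places where most spots were detected. For the CATHL1 and CATHL3 probes the surroundings on the probiotic arrays were dim as well.

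**Figure D2:**
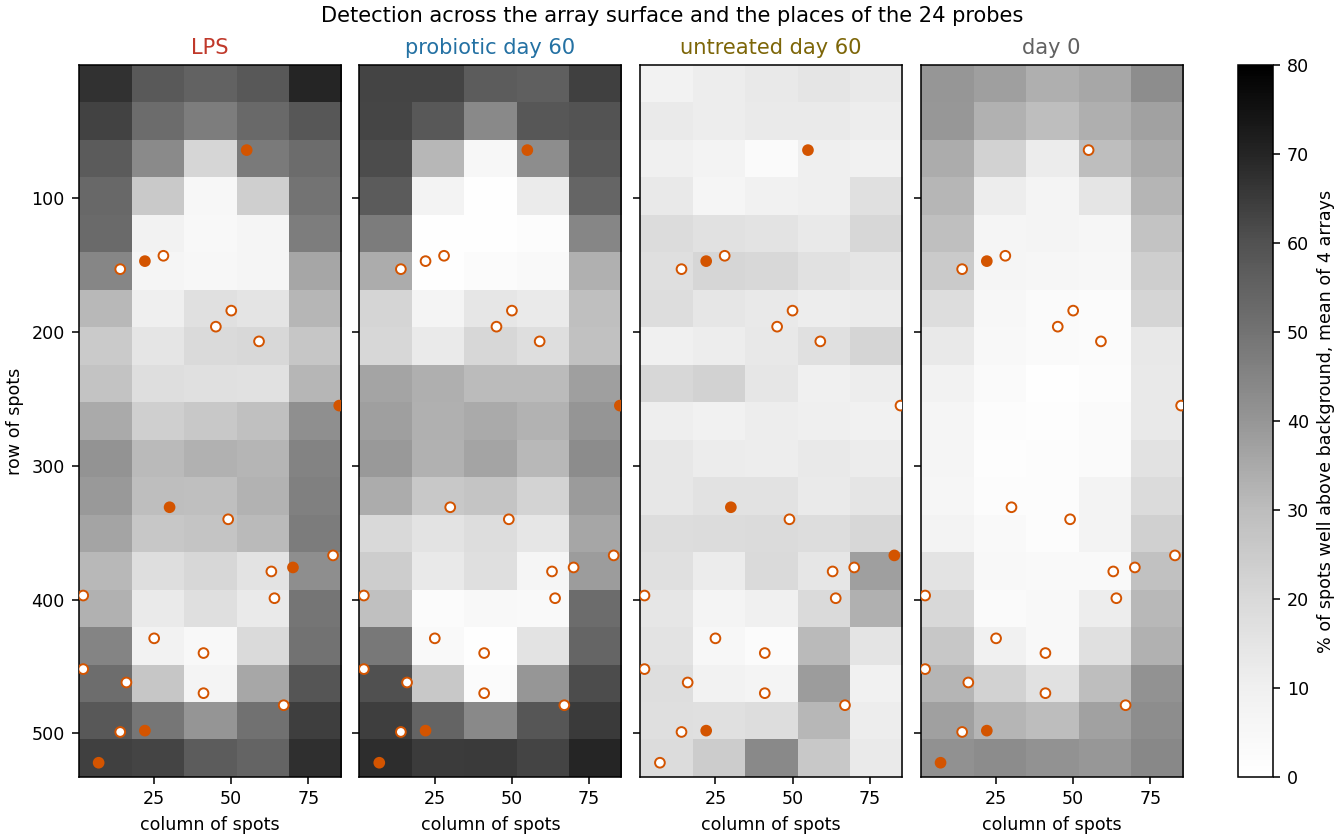
Percentage of spots well above background across the array surface (grey, mean of the 4 arrays of a group, in blocks of 28 rows by 17 columns), with the places of the 24 probes; filled points had at least 1 array of that group well above background. Outer rows are darker than the inner block on the probiotic arrays (57.1% to 62.4% against 10.7% to 21.1%), and less so on the untreated arrays (15.4% to 20.5% against 10.3% to 17.4%).

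The plot of signal against surroundings sets each value beside the detection around it. On the probiotic arrays the 12 values well above background (the uneven BPI spot included) had 42.1% to 74.5% of their surroundings detected. On the untreated arrays the 12 such values had 10.9% to 68.8%, and those of DEFB122 A_73_P074281 had 12.5% to 23.5%.

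**Figure D3:**
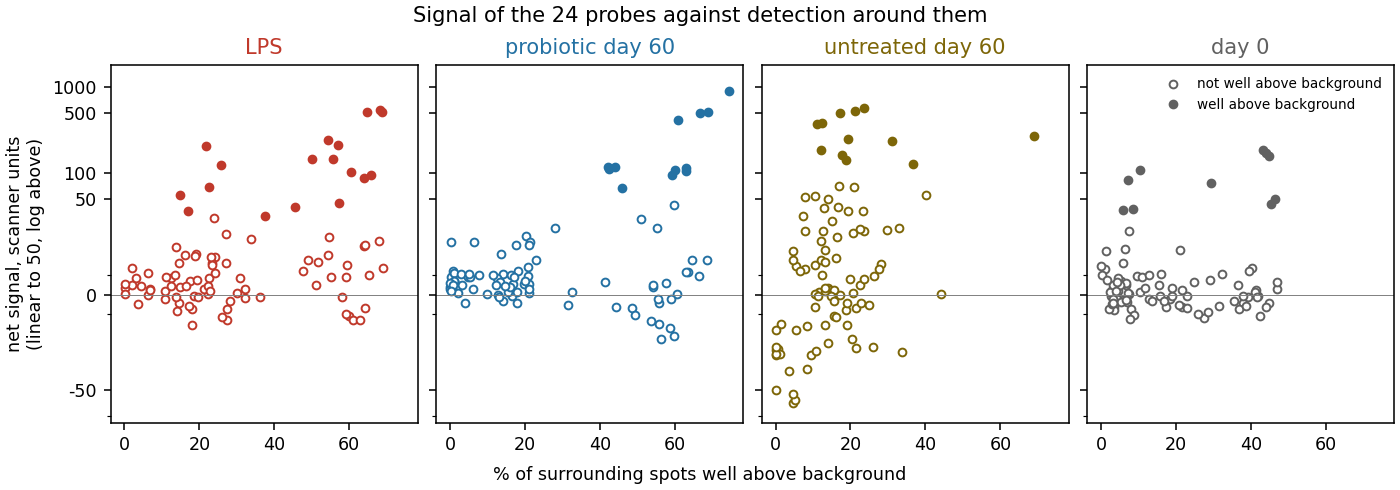
Net signal (vertical axis, scanner units, linear to 50 and logarithmic above) of each of the 24 probes on each array against the percentage of surrounding spots well above background (horizontal axis), by group. Filled points are well above background; BPI on the probiotic arrays, at 412 to 914 units, lies at the upper right.

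For the comparisons, the net signal of each array was divided by the 75th percentile of the 671 probes that were well above background on all 16 arrays, and log2 levels were fitted with limma over 12198 probes that were well above background on all 4 arrays of at least 1 group. Values under a floor of -6.51 on the log2 scale were set to it. To pass, a probe needed a fold of at least 2 and a p under 0.05 after Benjamini-Hochberg adjustment. Among the antimicrobial genes 4 of 24 probes could be tested, 1 each for BPI, LTF, CATHL6 and DEFB122. The scaling values were 1797 to 11190 units on the LPS arrays, 7120 to 11944 on the probiotic arrays, 1076 to 1380 on the untreated arrays and 776.5 to 3024.5 on the day 0 arrays, so 1 scanner unit counted for more on the untreated and day 0 arrays. The floor lay above the detection limit of the probiotic arrays and below that of the untreated arrays, so several probiotic values that were well above background stand at the floor.

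BPI, the lipopolysaccharide-binding granule protein, was read by A_73_113676. It measured 512, 541, 518 and 246 units on the LPS arrays and 914, 506, 509 and 412 units on the probiotic arrays, all well above background. On the untreated arrays it measured -11.1, -8.26, -16.0 and 10.3 units, and on the day 0 arrays 158, 172, 184 and 76.3 units. The untreated arrays were the only ones on which this probe was not well above background, and in scanner units the LPS, probiotic and day 0 groups each lay wholly above them. The spot at 914 units was marked as uneven by the software and left out, so the probiotic group has n = 3 in the fit. The second BPI probe stayed between -2.55 and 43.7 units and never rose well above background. Its surroundings were detected at 15.6% to 21.2% on the probiotic arrays, against 60.9% to 74.5% around the first.

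LTF, the iron-binding granule protein, had 5 probes, and 2 of them were well above background on some array. LTF A_73_116655 measured 146, 214, 146 and 44.0 units on the LPS arrays, all well above background, and 119, 118, 113 and 35.1 units on the probiotic arrays, the last of them not well above background. On the untreated arrays it measured 188, 52.3, 247 and -27.2 units, of which replicates 1 and 3 were well above background. On the day 0 arrays it measured 12.6, 5.10, 10.7 and 33.4 units, none of them well above background. The untreated values spread over the range of every other group. LTF A_73_P379426 measured 127, 272, 16.2 and -4.42 units on the untreated arrays, well above background on replicates 1 and 2, and -15.4 to -2.20 units on the probiotic arrays, where 49.3% to 55.8% of its surroundings were detected. Only untreated replicate 1 was well above background for both LTF probes. The 3 other LTF probes were between -16.4 and 34.8 units.

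PGLYRP1 A_73_121141 lay near the detection limit. It measured 41.3, 45.8, 48.1 and 16.4 units on the LPS arrays, well above background on replicates 1 to 3, and 46.7, 67.5, 39.8 and 26.1 units on the probiotic arrays, well above background on replicate 2. On the untreated arrays it measured 18.1, -6.32, 17.3 and -18.5 units, and on the day 0 arrays 7.56, 6.48, 2.26 and -12.9 units. The LPS and probiotic values overlapped. In scanner units, before scaling, every probiotic value was above every untreated and every day 0 value. This order was not kept on the scaled log2 levels. There every probiotic and day 0 array stood at the floor of -6.51, and the untreated mean was -6.24. The probe was not well above background on all 4 arrays of any group and was not tested.

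Of the cathelicidins, CATHL5 and CATHL6 gave signal. CATHL5 A_73_111051 measured 55.9 units on LPS replicate 4 and 161 and 142 units on untreated replicates 3 and 4, and no other array was well above background. CATHL6 A_73_116963 measured -4.95, -0.395, 9.37 and 204 units on the LPS arrays, with only replicate 4 well above background, and 7.19, 6.20, 4.95 and 2.08 units on the probiotic arrays. It measured 370, 235, 68.8 and -31.2 units on the untreated arrays, with replicates 1 and 2 well above background, and 44.7, 44.5, 108 and 82.6 units on the day 0 arrays, all well above background. The probiotic values lay below every day 0 value and within the range of the untreated values. Around this probe 3.65% to 21.9% of spots were detected on the LPS arrays, 0 to 0.960% on the probiotic arrays, 1.15% to 31.1% on the untreated arrays and 5.76% to 10.4% on the day 0 arrays. The surroundings were thus darkest in the group with the lowest CATHL6 signal, and their part in the result was not tested. The second CATHL6 probe was between -55.4 and 41.1 units and not well above background on any array.

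DEFB122 A_73_P074281 was well above background on 14 of 16 arrays, more than any other probe of these genes. It measured 103, 87.0, 94.4 and 125 units on the LPS arrays and 116, 109, 105 and 94.7 units on the probiotic arrays. It measured 503, 567, 530 and 379 units on the untreated arrays and 49.9, 47.2, 13.9 and 10.6 units on the day 0 arrays. The untreated arrays stood above all others without overlap, and the LPS and probiotic arrays overlapped. The overlapping probe A_73_P032826 measured 40.2, 31.9, 29.1 and 69.7 units on the LPS arrays and 1.01, 5.46, 10.3 and -3.37 units on the probiotic arrays. On the untreated arrays it measured 23.3, 55.1, 50.6 and 27.8 units, and on the day 0 arrays -6.45 to -0.618 units. It was well above background on LPS replicate 4 alone, and it sat in another place, where 12.1% to 40.3% of the surroundings were detected on the untreated arrays. The third DEFB122 probe stayed between -38.8 and 27.6 units.

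**Figure D4:**
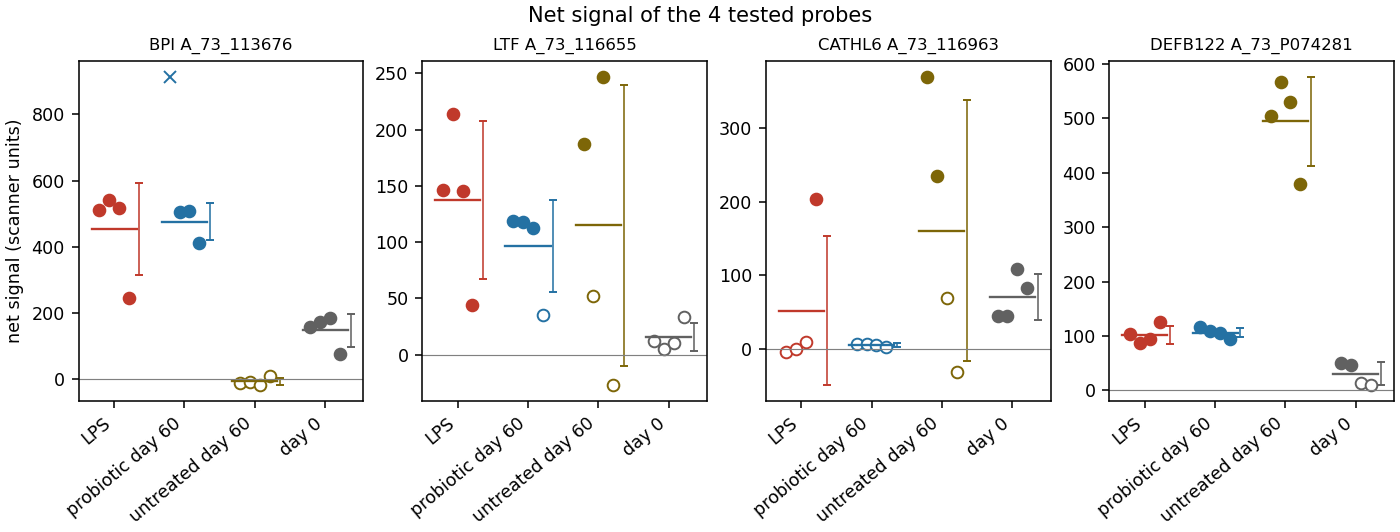
Net signal in scanner units of the 4 tested probes on each array, by group; filled points are well above background, the cross is the uneven BPI spot that was left out, lines are means and bars SD (n = 4; n = 3 for BPI in the probiotic group). DEFB122 is highest on the untreated arrays, at 379 to 567 units, and BPI lowest there, at -16.0 to 10.3 units.

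Probiotic against untreated cows at day 60 sets the supplement against water at the same time. All 4 tested probes passed, 1 higher and 3 lower in the probiotic group, where 59.6% of all tested probes passed (3762 or 30.8% higher and 3505 or 28.7% lower). That split moved with the scaling: 4967 were higher and 1926 lower with the 75th percentile of all probes, 4857 and 2612 with quantile normalization, 4335 and 2206 with normexp, 4177 and 2162 when scaled by place, and 2136 and 702 with the processed signal. In bulk blood, fewer cells of a type and less RNA per cell cannot be told apart. The median log2 difference was -2.69 over the 4 probes and 0.10 over all tested probes. DEFB122 was lower in the probiotic group, with a log2 level of -6.44 ± 0.14 in the probiotic group and -1.30 ± 0.31 in the untreated group (SD, n = 4 each), a difference of -5.14 ± 0.48 (SE, limma adjusted p = 6.108e-07). Probiotic replicates 1 to 3 stood at the floor for DEFB122 although well above background. The probiotic SD and the size of the difference therefore depend on the floor. Under the other processing choices the DEFB122 difference was -5.96 to -1.91, and in the authors' deposited table of averages -1.26. LTF was lower by the same fit, at -6.51 in the probiotic group, where every array stood at the floor, and -3.98 ± 2.03 in the untreated group, a difference of -2.53 ± 0.77 (limma adjusted p = 0.01111), although the groups overlapped. In scanner units, before scaling, LTF averaged 96.2 ± 40.8 in the probiotic group and 115 ± 125 in the untreated group (SD, n = 4 each).

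CATHL6 was lower in the probiotic group, with a log2 difference of -2.85 ± 1.02 (SE, limma adjusted p = 0.02589). All 4 probiotic arrays stood at the floor, 2 of 4 untreated arrays were well above background, and no fold is given. BPI passed as higher in the probiotic group, at -4.32 ± 0.18 (n = 3), against -6.51 in the untreated group, a difference of 2.19 ± 0.34 (SE, limma adjusted p = 0.0001105). No fold is given for it, because the detection limit of the untreated arrays, at -4.14 to -3.22 on this scale, was above the probiotic level.

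These 4 calls were not equally firm. Under the other processing choices the adjusted p stayed under 0.05 in 11 of 12 for DEFB122, 9 of 11 for BPI, 5 of 12 for CATHL6 and 4 of 12 for LTF. The CATHL6 call was lost when any 1 of the 4 probiotic arrays or untreated replicate 1 or 2 was left out, with limma adjusted p-values of 0.05012 to 0.07555. With levels scaled by their place on the array, the CATHL6 difference turned to 0.48 (limma adjusted p = 0.8042) and that of LTF was -2.05 (limma adjusted p = 0.1908). The BPI difference became 0 with the floor at the highest detection limit of the arrays and was 0.04 in the authors' deposited table of averages, and with the software's processed signal the DEFB122 difference had an adjusted p of 0.0536 by limma. Leaving out any 1 array kept the DEFB122 difference between -5.34 and -5.07 and the BPI difference between 2.01 and 2.35.

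**Figure D5:**
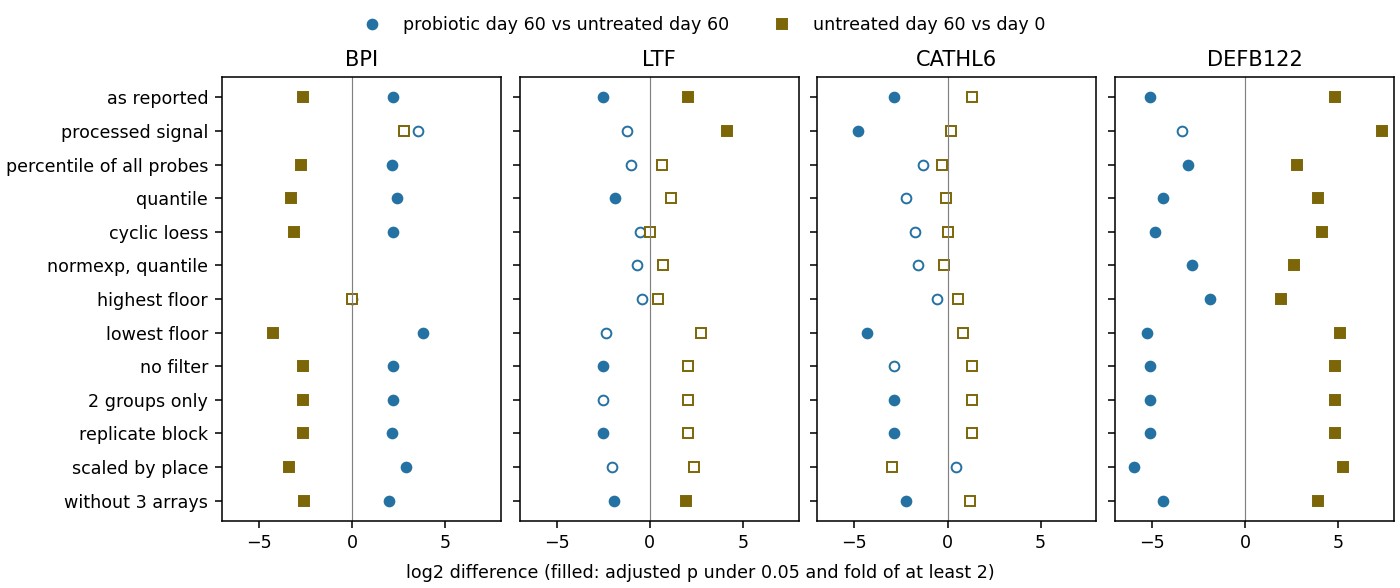
Log2 differences (horizontal axis) of the 4 tested probes under each processing choice (rows), for probiotic minus untreated at day 60 (circles) and untreated day 60 minus day 0 (squares); filled symbols passed both limits. DEFB122 kept its direction in all rows of both comparisons, and BPI has no value under normexp.

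Probiotic at day 60 against day 0 follows the probiotic arm over time, as far as the day 0 label goes. None of the 4 probes passed, where 6.8% of all tested probes did (708 or 5.8% higher and 121 or 0.992% lower), and the fit gave no unadjusted p under 0.05 for them. Over all tested probes 326 were higher and 218 lower with the percentile of all probes, 529 and 173 with quantile normalization, 256 and 121 with normexp, 423 and 331 when scaled by place, and 91 and 57 with cyclic loess. In the probiotic group relative to day 0, the log2 difference was -0.45 ± 0.34 for BPI (limma adjusted p = 0.4873), -0.49 ± 0.77 for LTF (adjusted p = 0.794) and -0.31 ± 0.48 for DEFB122 (adjusted p = 0.7927). For CATHL6 it was -1.54 ± 1.02 (SE, limma adjusted p = 0.4141). This probe could be tested only because all 4 day 0 arrays were well above background, so its level at day 0 is what let it in. The direction of BPI, LTF and DEFB122 on this scale was opposite to that in scanner units, in which BPI averaged 476 ± 55.4 (n = 3) in the probiotic group and 148 ± 48.6 in the day 0 group. For LTF the difference of -0.49 rests on day 0 replicate 4 alone, at 33.4 units and not well above background. All other LTF values of these groups stood at the floor, although 3 of 4 probiotic arrays and no day 0 array were well above background. With the software's processed signal all 4 passed, BPI at 6.34 and DEFB122 at 3.93 higher and CATHL6 at -4.61 lower in the probiotic group. LTF was higher by 2.90 there. The processed signal includes the software's spatial detrending, and the signal before detrending was therefore the main one. Over the bulk of detected spots the ratio of processed to net signal ran from 0.176 to 25.8 on day 0 replicate 2. It ran from 0.168 to 54.8 on day 0 replicate 3 and from 0.673 to 857 on day 0 replicate 4. On the probiotic arrays it was 1. The cause of the turned directions was not tested.

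LPS against probiotic blood at day 60 asks what the endotoxin added ex vivo did, and it is the comparison within 1 scan day. None of the 4 probes passed, where 0.426% of all tested probes did (48 or 0.394% higher and 4 or 0.0328% lower), and none had an unadjusted p under 0.05. Over all tested probes 22 were higher and 15 lower with the percentile of all probes, and 62 and 20 when scaled by place. In the LPS group relative to the probiotic group, the log2 difference was 0.34 ± 0.34 for BPI, 0.67 ± 0.77 for LTF, 0.84 ± 1.02 for CATHL6 and 0.60 ± 0.48 for DEFB122 (SE, limma adjusted p = 0.9696 each). BPI, which binds the agent added, averaged 454 ± 139 units in the LPS group (n = 4) and 476 ± 55.4 units in the probiotic group (n = 3). The LTF levels did not overlap, since every probiotic array stood at the floor, and those of the other 3 did. LTF could be tested only because all 4 LPS arrays were well above background. Its level in the LPS group is thus what let it in, and the lack of overlap is no separate result. Replicate 4 of the LPS group had the lowest scaling value of that group. Without it the LPS minus probiotic difference was -0.04 for BPI, 0.55 for LTF, 0 for CATHL6 and -0.09 for DEFB122, with limma adjusted p-values of 1.

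Untreated at day 60 against day 0 sets the untreated cows against blood drawn before the supplement and labelled as coming from the probiotic arm. By these labels the cows differ, so change over time cannot be told apart from a difference between cows. Of the 4 probes 3 passed, 2 higher and 1 lower in the untreated group, where 49.4% of all tested probes passed (3528 or 28.9% higher and 2498 or 20.5% lower). With the percentile of all probes 1618 were higher and 4029 lower, with quantile normalization 2273 and 3895, with normexp 2037 and 3402, scaled by place 2184 and 3570, with cyclic loess 3025 and 3225, and with the processed signal 3302 and 60. DEFB122 was higher in the untreated group, at -1.30 ± 0.31, against -6.13 ± 0.28 at day 0 (SD, n = 4 each), a difference of 4.83 ± 0.48 (SE, limma adjusted p = 1.211e-06). BPI was lower in the untreated group, with a difference of -2.65 ± 0.32 (SE, limma adjusted p = 1.159e-05), at the floor on all untreated arrays and -3.86 ± 0.39 at day 0, again with no fold because the untreated detection limit was too high. The BPI adjusted p stayed under 0.05 in 9 of 11 other processing choices, but the difference was 2.80 with the processed signal (limma adjusted p = 0.2021), 2.78 in the authors' deposited table of averages and 0 with the highest floor. LTF was higher by 2.03 ± 0.77 (SE, limma adjusted p = 0.04007), with 2 of 4 untreated arrays well above background. Under the other processing choices its adjusted p stayed under 0.05 in 2 of 12, and the difference was 0.02 to 4.14. The LTF call was lost without untreated replicate 1 or 3 or without day 0 replicate 1, 2 or 3, with limma adjusted p-values of 0.09614 to 0.1303. CATHL6 had a difference of 1.31 ± 1.02 (SE, limma adjusted p = 0.3074). This comparison shares the untreated arrays with the comparison of probiotic and untreated cows, and the comparison of probiotic cows with day 0 shares the day 0 arrays, so their values for a gene are not independent.

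DEFB122 A_73_P074281 was the probe with enough detected arrays (12 or more of 16) to ask which genes had a like profile. Among 9848 probes with a symbol, the 3 nearest in mean absolute difference of centred log2 levels over the 16 arrays were those of ECHDC2 at 0.185, KCNJ8 at 0.236 and NPFF at 0.238. These values describe likeness only. DEFB122 stood at the floor on probiotic replicates 1 to 3, LPS replicates 1 to 3 and day 0 replicate 3. The likeness thus rests mostly on how high the untreated arrays stood. The ECHDC2 probe measured 14.7 to 445 units and the KCNJ8 probe 11.6 to 474 units over the 16 arrays. BPI reached 11 arrays once its uneven spot was left out and was not matched.

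The list of other granule and antimicrobial proteins held 33 genes on the array with 70 probes, of which 21 could be tested. In the probiotic group relative to the untreated group 8 rose and 6 fell, where 59.6% of all tested probes passed, with a median log2 difference of 1.55, against 0.10 over all tested probes. The calcium-binding protein S100A12, abundant in neutrophils, rose by 7.49 ± 0.86 with A_73_P050466, at 51095 to 60662 units on the probiotic arrays and 6.98 to 85.5 on the untreated arrays. The S100A12 probe A_73_115208 fell by 3.81 ± 0.63, at 309 to 356 units on the probiotic arrays and 456 to 878 on the untreated arrays, so probes of 1 gene gave opposite calls. GNLY, a cytolytic granule protein of lymphocytes, rose by 5.84 ± 0.32 on the log2 scale. The protease MMP25 fell by 4.08 ± 0.72, and the siderophore-binding LCN2 fell by 3.86 ± 0.58 (SE, all limma adjusted p at or under 0.0002322).

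In the probiotic group relative to day 0, 2 of the 21 rose and none fell, where 6.8% of all tested probes passed, with a median of 0.22, against 0.38 over all tested probes. Lysozyme LYZ (A_73_105503) rose by 4.99 ± 1.23 (SE, limma adjusted p = 0.02536) and S100A9 by 3.95 ± 1.04 (SE, limma adjusted p = 0.03331). This LYZ probe spread from 186 to 10401 units over the probiotic arrays and measured 2.68 to 28.5 units on the day 0 arrays. The LYZ probe A_73_P107931 did not pass, at 9418 to 12391 units on the probiotic arrays and 920 to 4963 on the day 0 arrays. In the LPS group relative to the probiotic group none of the 21 passed. In the untreated group relative to day 0, where 49.4% of all tested probes passed, 5 rose and 5 fell, with MMP25 at 4.95 ± 0.72 and the peroxidase LPO at 4.27 ± 0.52 higher and S100A12 (A_73_P050466) at -7.35 ± 0.86 and GNLY at -5.33 ± 0.32 lower (SE, all limma adjusted p at or under 4.687e-05).

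Of 24 probes of other beta-defensins 3 could be tested, and DEFB7 was the gene that passed. It passed between the probiotic and untreated groups, where 59.6% of all tested probes passed, and between the untreated group and day 0, where 49.4% did. It rose by 3.43 ± 0.33 in the probiotic group relative to the untreated group, at 2297 to 2562 units on the probiotic arrays and 18.7 to 40.6 on the untreated arrays (SE, limma adjusted p = 8.177e-07). In the untreated group relative to day 0, where it measured 284 to 1233 units, the difference was -4.13 ± 0.33 (SE, limma adjusted p = 1.315e-07). DEFB7 and DEFB122, both beta-defensins, thus differed in opposite directions between the probiotic and untreated groups. Of all tested probes 30.8% rose and 28.7% fell in that comparison. None of the 3 passed in the probiotic group relative to day 0 or in the LPS group relative to the probiotic group. Of all tested probes 6.8% and 0.426% passed there.

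Regulators and sensors upstream of antimicrobial peptide genes had 20 of 47 probes tested. In the probiotic group relative to the untreated group 2 rose and 7 fell, where 30.8% of all tested probes rose and 28.7% fell, with a median of -0.37. SPI1, the myeloid transcription factor PU.1, rose by 4.47 ± 1.37 and HIF1A by 4.46 ± 0.66, and CEBPB (A_73_P102851), a transcription factor of myeloid cells, fell by 3.67 ± 0.64, while CD14, the lipopolysaccharide co-receptor, had a difference of -3.52 ± 0.46 (SE, all limma adjusted p at or under 0.01155). In scanner units CD14 measured 182 to 210 on the probiotic arrays and 143 to 600 on the untreated arrays, and the groups overlapped. CEBPB (A_73_P102851) overlapped at 203 to 835 against 770 to 945, and SPI1 at 3.87 to 11943 against -15.5 to 40.5. HIF1A did not overlap, at 3265 to 3860 against -17.4 to 73.9. STAT3, named after its value was seen, fell in the fit. Its probiotic scanner units were higher, at 276 to 323 against 142 to 174. In the probiotic group relative to day 0, STAT3 rose by 1.25 ± 0.24 (SE, limma adjusted p = 0.007511) and none fell. In the LPS group relative to the probiotic group none passed. In the untreated group relative to day 0, 7 rose and 1 fell, where 28.9% of all tested probes rose and 20.5% fell. Higher were the adaptor MYD88 at 4.27 ± 0.33, CEBPA at 3.89 ± 1.19, CEBPB (A_73_P102851) at 3.81 ± 0.64 and STAT3 at 3.34 ± 0.24, and the probe that fell, named after its value was seen, was that of HIF1A at -3.30 ± 0.66 (SE, all limma adjusted p at or under 0.01423).

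Markers of other cell types were counted in the same fits. Of 11 tested neutrophil marker probes 7 rose and 3 fell in the probiotic group relative to the untreated group, where 30.8% of all tested probes rose and 28.7% fell, and in the probiotic group relative to day 0, 3 rose and none fell, where 5.8% of all tested probes rose. None passed in the LPS group relative to the probiotic group, and 3 rose and 4 fell in the untreated group relative to day 0, where 28.9% of all tested probes rose and 20.5% fell. The summed net signal of all 20 was 5189 to 101400 units on the LPS arrays, 80439 to 113627 on the probiotic arrays, 4702 to 8696 on the untreated arrays and 3014 to 25089 on the day 0 arrays. Marrow granulocyte precursor markers, cells that transcribe granule protein genes, summed to 492 to 1615 units on the LPS arrays, 1167 to 1478 on the probiotic arrays, 644 to 914 on the untreated arrays and 117 to 287 on the day 0 arrays over 13 probes. In the probiotic group relative to the untreated group 1 of the 6 tested precursor probes, of the protease ELANE, fell by 3.53 ± 0.29 (SE, limma adjusted p = 1.37e-07) and none rose. Epithelial markers, from a tissue type that makes beta-defensins, fell at 3 of 3 tested probes in the same comparison, in which 28.7% of all tested probes fell, and KRT19 fell by 3.31 ± 1.03 (SE, limma adjusted p = 0.01265). These 3 probes were of 2 genes, KRT19 and KRT8, of 6 on the array. In scanner units all 3 overlapped between the groups. KRT19 measured 3155 to 8119 on the probiotic arrays and 6015 to 8680 on the untreated arrays. The KRT8 probes measured 56.4 to 103 against 55.6 to 164 and 769 to 1042 against 130 to 1129. The same 3 probes rose in the untreated group relative to day 0, in which 28.9% of all tested probes rose. In the probiotic group relative to day 0 the epithelial markers rose at 1 of 3, where 5.8% of all tested probes rose. Their 16 probes summed to 3108 to 6327 units on the LPS arrays, 4091 to 9338 on the probiotic arrays, 6422 to 10186 on the untreated arrays and 196 to 2307 on the day 0 arrays. The part of these cell types in the BPI, LTF, CATHL6 and DEFB122 differences was not tested.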

How the data were processed

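Each array came with a deposited scanner file, which Agilent Feature Extraction 10.10.1.1 produced, per the submitters' processing notes, and the authors added a table with 1 log2 value per probe and group, whose centring is not given in the sources used here. Net signal is the deposited background-subtracted intensity, per the file headers. Its flag for spots well above background, deposited as 0 or 1, was used as given. Control spots and spots marked as uneven or outlying were left out, and spots of 1 probe were averaged. Intensities were divided per array by the 75th percentile of the probes detected on all 16 arrays and floored at the median of the arrays' lowest detected signals, after which log2 was taken. All 16 arrays entered 1 fit (R 4.3.3, limma 3.58.1: lmFit, then eBayes; two-sided), with p-values adjusted over all 12198 kept probes. The same steps were tested on simulated data. Errors after ± are SD for levels and SE for differences.

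The gene members and gene lists were chosen with earlier results of these data known. The rule for names was to give every probe of the 10 symbols, and genes of the lists (other granule and antimicrobial proteins, other beta-defensins, regulators, and neutrophil, T cell, marrow precursor and epithelial markers) only where they passed, at most 4 per list and comparison. Of T cell markers, 7 of 13 tested probes rose and 2 fell in the probiotic group relative to the untreated group. Of all tested probes 30.8% rose and 28.7% fell there. No T cell probe passed between the probiotic group and day 0, where 6.8% of all tested probes passed. Other background, scaling, floor and filter choices, left-out arrays and a replicate block were tried. The normexp alternative used the median spot signal, since no mean spot signal was used here. The probes were designed on an assembly that differs from that of the RefSeq table (ARS-UCD2.0), so no coordinates are given. Whether arrays of the same number belong together was checked: the correlation of their deviations from the group means was -0.247 to 0.681 over 24 pairs, with 7 over 0.1, so the numbers were not taken to pair arrays.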

Additional observations from a re-analysis of the deposited data

Results flagged for a closer look

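In 19 sets of values from a group's 4 arrays, 5 values stood apart from the other 3 of their set. Chance flags about 1 set in 20. All 5 were values of the tested probes, which gave only part of the 19 sets. In 4 of the 5 the other 3 values were all at the floor, so any value above it stands apart and that rate does not apply to them. Of the 5 values, 3 were on LPS replicate 4. BPI had a log2 level of -2.87 there, against -4.41 to -4.26 on the other LPS arrays. CATHL6 had one of -3.14 and DEFB122 one of -3.85, both against -6.51 at the floor. LTF had a log2 level of -4.54 on day 0 replicate 4 and -6.51 on the other day 0 arrays. DEFB122 had a log2 level of -6.23 on probiotic replicate 4 and -6.51 on the other probiotic arrays, although in scanner units, at 94.7, it was the lowest of its group. These arrays had the lowest scaling values of their groups, 1797 units for LPS replicate 4, 7120 for probiotic replicate 4 and 776.5 for day 0 replicate 4.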

How the results depend on the processing

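Counts of passing probes are given with the antimicrobial ones first, then all tested probes. For probiotic against untreated, where 4 and 7267 passed, the processed signal gave 1 and 2838, the 75th percentile of all probes and cyclic loess 2 each, normexp 1, the highest floor 1 and 2644, no filter on dim probes 7 and 11188, scaling by place 2, and a fold of 2 in the authors' deposited averages 2 and 2411. For probiotic against day 0, where 0 and 829 passed, the processed signal gave 4 and 9057, the authors' deposited averages 3 and 8410, and for all probes the percentile of all probes gave 544, cyclic loess 148, normexp 377, the highest floor 136, no filter 364, the 8 arrays alone 1597 and leaving out replicate 4 of day 0, probiotic and LPS 1858. For LPS against probiotic, where 0 and 52 passed, the authors' deposited averages gave 2 and 8215, and for all probes cyclic loess gave 24, the highest floor 3, the lowest floor 96, no filter 18, the replicate block 33, scaling by place 82 and leaving out those 3 arrays 452. For untreated against day 0, where 3 and 6026 passed, normexp gave 1, the highest floor 1 and 2055, no filter 6 and 9393, and for all probes the processed signal gave 3362 and the authors' deposited averages 9308. Leaving out 1 array gave 3 to 4 and 6731 to 8213 for probiotic against untreated, 0 and 401 to 1281 for probiotic against day 0, 0 and 19 to 194 for LPS against probiotic, and 2 to 3 and 5270 to 6846 for untreated against day 0. Without probiotic replicate 1, 2, 3 or 4 the count was 488, 407, 401 or 1281 for probiotic against day 0 (461 without day 0 replicate 3), and 29, 19, 23 or 194 for LPS against probiotic (129 without LPS replicate 4).

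Directions turned in these cases, and the cause was not tested. For probiotic against day 0 the processed signal gave 6.34 for BPI, 2.90 for LTF and 3.93 for DEFB122, and the authors' deposited averages 2.82, 2.18 and 6.06 for the same genes. For untreated against day 0 BPI was 2.80 with the processed signal and 2.78 in the authors' deposited averages, and for LPS against probiotic it was -1.02 in those averages. CATHL6 for probiotic against untreated was 0.48 when scaled by place and 0.14 in the authors' deposited averages. Of differences that had not passed, CATHL6 for untreated against day 0, reported as 1.31, was -2.98 scaled by place, -0.28 with the percentile of all probes, -0.18 with normexp and -0.09 with quantile normalization. For LPS against probiotic BPI was -0.95 with the processed signal and -0.14 with the percentile of all probes, CATHL6 -1.62 scaled by place, and DEFB122 -0.27 with the processed signal and -0.28 in the authors' averages. For probiotic against day 0 CATHL6 was 0.31 in those averages, and LTF 0.35 with the lowest floor and 0.30 scaled by place. The replicate block left 4 antimicrobial calls for probiotic against untreated and ended the call of LTF for untreated against day 0 (limma adjusted p = 0.06588); 7 of 16 arrays correlated best with arrays of their own number. Scaling by place, leaving out those 3 arrays and the column used for normexp were chosen after the data were seen. Of the antimicrobial probes 66.7% were never well above background, which limits what these values can show.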
